A study of Mus musculus with 6 samples.

Results

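The stretch described is the 110 kb of mouse chromosome 3 that runs from just upstream of Sox2 to 20 kb before the Sox2 control region, or SCR. Its members are the DpnII restriction fragments with a midpoint 20 to 130.5 kb from the bait on the side of the gene (mm9). Fragments entered by position and not by their values, but the interval was set with earlier results of these data known. The first runs from 34530400 and the last midpoint lies at 34640145. These are 260 of the 391360 fragments of the chromosome, and 260 of the 7392 fragments within 1.5 Mb of the bait. Contacts were measured by 4C-seq, in which crosslinked chromatin is cut and ligated and the fragments joined to 1 chosen fragment, the bait, are amplified and sequenced. The bait lay in the SCR, at position 34660500, in 3 libraries. Both ES libraries came from J1 embryonic stem cells of strain 129S4/SvJae. The user guide calls them biological replicates. The single NPC library came from such cells after 6 days of differentiation without LIF, with 5 µM retinoic acid over the last 4 days. For that library the labels give J1 as the starting line, whereas the study's methods give F1 ES cells. The methods also keep those F1 cells, before differentiation, in the medium that the study calls 2i. If the methods hold, cell line and prior culture cannot be told apart from differentiation in any ES to NPC difference below. All cells were fixed with 2% formaldehyde for 10 min, nuclei were treated with 0.4% SDS, and DpnII and Csp6I were the first and second enzymes. No RNA was measured, so the labelled cell types could not be set against their markers here.

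Sox2 encodes a transcription factor of the SOX family that keeps embryonic stem cells pluripotent and is also used by neural precursors. The SCR is a cluster of enhancers downstream of the gene that drives Sox2 in embryonic stem cells. An enhancer and its promoter can be brought close together by looping of the chromatin between them, and a 4C profile reads such proximity as reads per fragment. Near a bait, ligation also falls with distance on both sides whatever the function of the sequence, so levels below are set beside those of the mirror interval at equal distance on the other side.

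From its far end towards the bait, the interval was divided into 5 zones by the GENCODE vM1 annotation. The upstream flank (up to 34548926) held 42 fragments and the microRNA gene Mir1897 (34537386 to 34537464, plus strand). The Sox2 gene itself (34548927 to 34551383, plus strand) held the midpoints of 5 fragments. The 3' flank (34551384 to 34581541) held 58 fragments and lay inside Sox2ot, a long noncoding RNA gene (34003360 to 34581541, plus strand) whose intron holds Sox2. The remaining sequence has no annotated gene and was divided at its middle into a distal intergenic zone with 78 fragments (34581542 to 34611020) and a proximal one with 77 (from 34611021). Distal and proximal refer to the bait, which is 112 kb from the Sox2 start and 79.0 kb from the end of Sox2ot.

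Sequences of a few places that the results below turn on are given first, some high in ES cells alone and others high in both cell types or in NPC, with the positions to which they belong. The Sox2 promoter was read from RefSeq (GRCm38.p6) and matched the mm9 sequence at a single place, chr3:34548667-34548916. It had 27 CpG dinucleotides in 250 bases, a GC content of 72% and no DpnII site. Capitals mark its 1 CCAAT box on either strand (CCAAT or ATTGG), which 33.8% of 32851 RefSeq promoter windows also hold. It lies inside the fragment that spans the Sox2 start, described below for its low NPC count.
Sox2 promoter: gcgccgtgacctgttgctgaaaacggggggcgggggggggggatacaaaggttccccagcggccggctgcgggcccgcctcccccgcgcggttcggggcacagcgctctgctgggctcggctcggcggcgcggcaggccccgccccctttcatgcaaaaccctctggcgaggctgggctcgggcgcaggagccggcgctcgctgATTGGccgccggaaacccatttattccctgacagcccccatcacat

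The second stretch comes from the fragment chr3:34552637-34554288 in an intron of Sox2ot, which had the second highest ES level of the interval and few NPC reads. It covers chr3:34552833-34553132 on the plus strand, and capitals mark a match to TTGTNATGC, a SOX site followed by the start of an octamer site. Paired SOX and octamer sites are known from Sox2 enhancers of embryonic stem cells. On both strands the interval held 3 matches. They fell in 3 of 22 steps of 5 kb, or 13.6%, against 13% of 600 windows of 5 kb around the bait, so the match is given as a description of this fragment.
Sox2 downstream fragment: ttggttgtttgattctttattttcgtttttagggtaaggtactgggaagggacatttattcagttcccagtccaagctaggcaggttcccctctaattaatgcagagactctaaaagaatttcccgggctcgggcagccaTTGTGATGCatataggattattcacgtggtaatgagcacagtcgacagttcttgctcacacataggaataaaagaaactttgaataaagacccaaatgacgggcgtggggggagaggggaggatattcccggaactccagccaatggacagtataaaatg

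The next sequences are whole fragments, with the flanking DpnII sites (GATC) and any Csp6I site (GTAC) in capitals, all on the plus strand. The first, chr3:34560897-34561062, had rank 4 in ES cells and lay in the 3' flank. The second, chr3:34591518-34591555, ranked first of the distal intergenic zone in ES cells although it is only 38 bases long with both sites. The third, chr3:34618193-34618419, and the fourth, chr3:34632318-34632550, lay in the proximal intergenic zone and had ranks 3 and 2 in NPC. Both were chosen after their values were seen.
Flank fragment: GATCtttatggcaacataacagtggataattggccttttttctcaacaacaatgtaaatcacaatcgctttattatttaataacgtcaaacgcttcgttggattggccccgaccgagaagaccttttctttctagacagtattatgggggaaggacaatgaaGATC
Distal fragment: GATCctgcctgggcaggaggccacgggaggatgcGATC
Proximal fragment A: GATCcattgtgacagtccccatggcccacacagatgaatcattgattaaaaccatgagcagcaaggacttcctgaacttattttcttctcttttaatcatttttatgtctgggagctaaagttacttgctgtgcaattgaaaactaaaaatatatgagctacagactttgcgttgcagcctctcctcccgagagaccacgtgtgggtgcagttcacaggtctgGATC
Proximal fragment B: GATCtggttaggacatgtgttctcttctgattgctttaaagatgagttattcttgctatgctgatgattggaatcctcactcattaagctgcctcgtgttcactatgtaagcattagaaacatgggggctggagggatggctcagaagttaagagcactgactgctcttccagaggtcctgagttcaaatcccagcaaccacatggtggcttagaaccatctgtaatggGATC

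Depth differed between libraries, with 6447786 reads in ES replicate 1, 3915756 in ES replicate 2 and 2889643 in NPC. Of these the interval took 2065718, 1143230 and 283772 reads. Counting only reads between 20 kb and 1.5 Mb from the bait, that was 53.7% (95% exact binomial interval 53.7 to 53.8), 49.1% (49.1 to 49.2) and 19.4% (19.3 to 19.4). The intervals cover counting error of reads only, because PCR copies cannot be told from separate ligations. The 2 ES libraries thus differed from each other by far less than either differed from NPC, but with 2 libraries against 1 the smallest exact permutation p is 0.333, so that test cannot pass a threshold of 0.05 here. Relative to the mirror interval, the interval held 5.40, 3.98 and 1.07 times as many reads. Nearly all of its fragments were contacted in each library, 243, 247 and 245 of 260, or 93.5%, 95% and 94.2%, whereas 34.3%, 43.2% and 46.1% of fragments within 1.5 Mb had a read. In pooled cells, a weaker contact in every cell and a contact in fewer cells cannot be told apart.

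Levels below are reads per fragment once the 3 libraries had been quantile normalized over 1.5 Mb around the bait, a step that gives all of them the same set of values. Over the 260 fragments the mean level was 5045 in ES replicate 1, 4894 in ES replicate 2 and 2003 in NPC, a ratio of 2.48. Among the 247 fragments with a read in any library, both ES libraries were above NPC in 183, or 74.1%. Over all 4189 such fragments between 20 kb and 1.5 Mb the share was 22.2%. Both ES libraries can be above NPC only where both have a read, and fragments of the interval were read far more often. The gap between the shares therefore mixes detection and distance with the difference between the ES and NPC libraries. At the far border of the interval the level was 638, 396 and 312 in the last 5 kb inside, against 607, 637 and 246 in the 5 kb outside. At the border towards the bait it was 6497, 6365 and 2713 inside, against 11823, 10274 and 9038 outside.

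The ES to NPC ratio was not even along the interval. On mean levels it was between 3.42 and 4.51 in the 3 zones far from the bait and lower in both intergenic zones. In the upstream flank the levels were 4282 and 4086 in ES cells and 1000 in NPC, a ratio of 4.18. The Sox2 gene had 23454 and 22178 in ES cells and 6673 in NPC, a ratio of 3.42 and the highest level of any zone in all 3 libraries. Zones go by midpoint, so the fragment over the Sox2 start and promoter counts in the upstream flank. Its levels were 20467 and 19531 in ES cells and 144 in NPC. The order of these 2 zones by ratio therefore rests in part on that placement, and ratios with the fragment moved to the gene were not computed. In the 3' flank the levels were 6400, 6540 and 1435, a ratio of 4.51. Across these 3 zones the ES replicates lay close together and both lay well above NPC. The distal intergenic zone had 4472, 4134 and 1662, a ratio of 2.59. In the proximal intergenic zone the levels were 3825, 3743 and 3021, so that ES cells stood only 1.25 times above NPC, still outside the range of the 2 ES libraries.

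Scaled instead to the total of each file, Sox2 had the highest ratio of the zones, 5.29. Without its highest fragment, which was left out after its values were seen, the gene had levels of 17955, 14284 and 1567 and a ratio of 10.3. Taking the median fragment in place of the mean, the ratio was 13.4 for Sox2, 8.50 for the 3' flank and 2.93 for the proximal zone.

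In the mirror zones NPC stood above both ES libraries, the opposite of the interval. Quantile normalization gives all libraries the same set of values, so higher ES levels in the interval must be met by lower ones elsewhere. How much of the reversal comes from this scaling was not tested, and it is not read as a gain of mirror contacts in NPC. Comparisons of a library with its own mirror are made within that library. The mirror of the Sox2 gene had levels of 184, 606 and 1262, and that of the 3' flank 544, 670 and 1518. NPC stood above its own mirror at the Sox2 gene by a wide margin (6673 against 1262) but not in the upstream flank (1000 against 1082) or the 3' flank (1435 against 1518). The margin at the gene rested on 1 of its 5 fragments, since the other 4 had a mean NPC level of 1567. Both ES libraries were above their mirror in all 5 zones.

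Because a share of the reads within the interval does not depend on how libraries are scaled against each other, the reads were also apportioned to the zones. Sox2 took 9.25% and 9.31% of the interval's reads in ES cells and 5.47% in NPC. The 3' flank took 28.3% and 29.9% against 17.7%, and the upstream flank 13.6% and 13.8% against 8.59%. By contrast the proximal intergenic zone took 22.5% and 22.4% in ES cells but 40.3% in NPC (95% exact interval 40.1 to 40.5). The shift from ES to NPC was therefore largest in the proximal zone, at -17.8 percentage points for ES minus NPC, and in the 3' flank, at 11.4. The distal zone differed least, with 26.3% and 24.6% against 27.9%, a gap of -2.46 points beside a spread of 1.19 between the ES libraries (SD, n = 2).

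**Figure D1:**
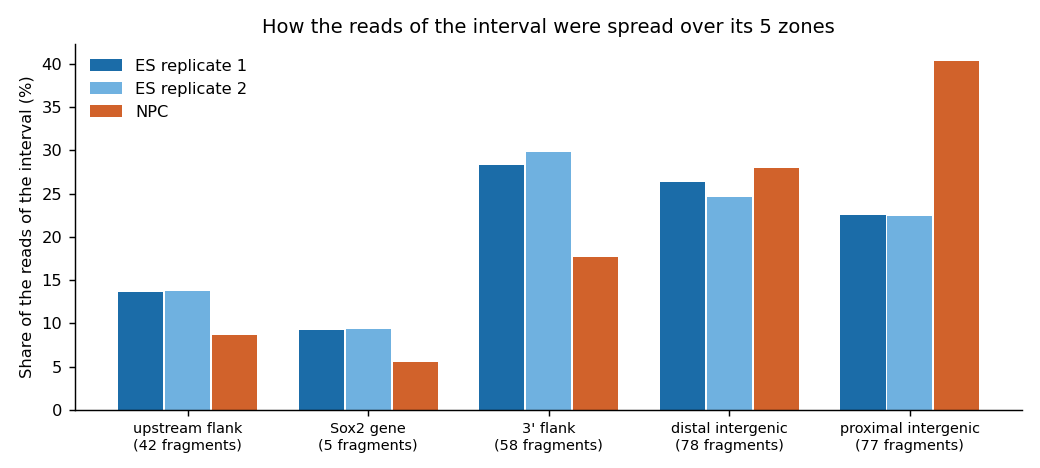
Share of the reads of the interval (percent, vertical axis) that fell in each of the 5 zones, ordered from the far end to the bait, for both ES libraries and NPC (bars). The ES bars stand above NPC in the first 3 zones, and the NPC bar of 40.3% stands above ES in the proximal zone.

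The running mean over 11 fragments showed the fine structure. A peak was a local maximum parted from any higher one by a valley of at most 0.7 of its height. The mean of the ES libraries had 10 peaks, ES replicate 1 alone 13, ES replicate 2 alone 11 and NPC 11. Each of the 10 ES peaks had a peak within 2 kb in either replicate, and 5 of the 10 had one in NPC. The highest ES peak, at 34550550 in Sox2, counts as unmatched, although an NPC peak at 34548425 lay just outside that distance. The 10 were called on the mean of the same ES libraries, so their match in the replicates is partly built in. It is no yardstick for the NPC count, and no share of matches for random positions is given.

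Its highest peak, at 34550550, lay inside Sox2, 110 kb from the bait, with 22347 and 21683 in ES cells and 3886 in NPC. The running mean of NPC was highest around the gene at 34548425, with 5102 over a window from 34543844 to 34551030. The fragment at that centre had an NPC level of only 144. Within the window, NPC levels of 27100 and 14171 lay at 34551030 and 34546171. The next peak lay in the 3' flank at 34568108, 92.4 kb from the bait, with 15875 and 14671 in ES cells and 4999 in NPC, which also peaked there. Between them the profile fell to 4499 and 4950 at 34557932, where NPC had 911. Both summits were thus above the valley in every library, and both ES libraries were above NPC in the valley too. Past the second summit the profile dropped to 1390, 763 and 749 at 34575478, still within Sox2ot.

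In the distal intergenic zone the tallest ES peak was at 34597090, 63.4 kb from the bait, with 9116 and 7548 in ES cells and 3018 in NPC. A low peak at 34581702, at the end of Sox2ot, had 3465 and 2975 in ES cells and 318 in NPC. The largest ratio at any of the 10 summits, 10.1, was found there. Those at 34603989 (4378, 4037 and 539) and 34606208 (4210, 4770 and 1314) stood side by side with an NPC signal that was weak under the first and stronger under the second. In the proximal zone the ES libraries had 2182 and 2078 at 34613040, where NPC had 509. Next came 34624988 with 6435, 6556 and 4690. At 34631231 the order turned, with 4278 and 2681 in ES cells and 5250 in NPC, and the ES libraries differed from each other by more than at the neighbouring summits. The last, at 34639407 and 21.1 kb from the bait, had 8308, 7361 and 5974. The highest NPC peak of the interval was none of these: it lay at 34619610 with 6259, above both ES libraries (4280 and 5426).

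**Figure D2:**
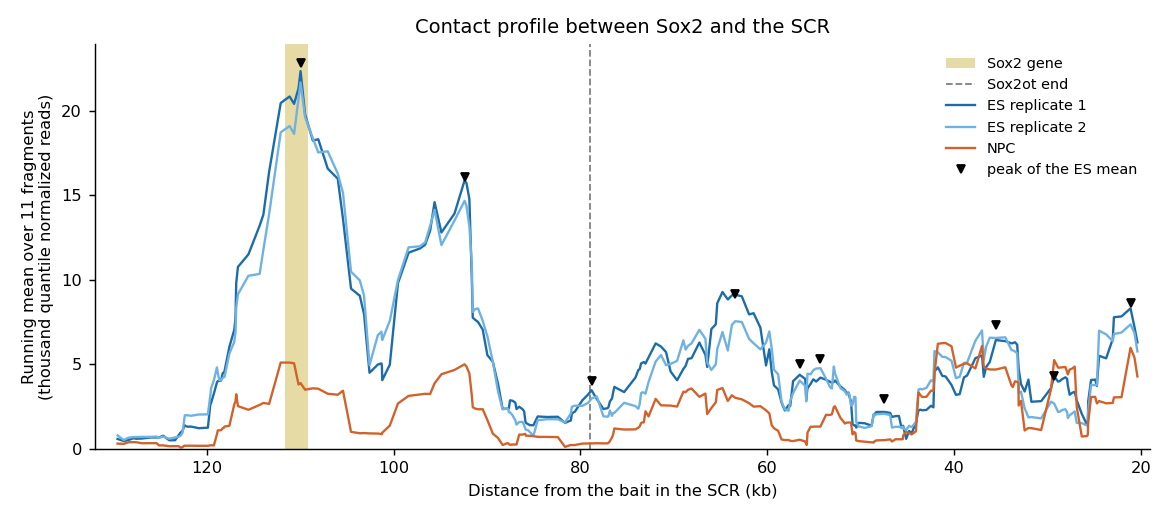
Running mean over 11 fragments of the quantile normalized reads (vertical axis, in units of 1000) against the distance from the bait (kb, horizontal axis, bait to the right) for the 3 libraries, with the 10 peaks of the ES mean as triangles. ES cells rise to 22347 and 21683 in Sox2 against 3886 in NPC, while the lines cross repeatedly closer to the bait than 45 kb.

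At the resolution of single fragments, those over Sox2 differed widely in how much NPC signal they kept. The fragment chr3:34550595-34551466, in the untranslated end of Sox2 and just past it, was first in ES cells and first in NPC, with 73220, 51060 and 11179 reads and levels of 45449, 53753 and 27100, a ratio of 1.83. Directly upstream, chr3:34550508-34550594 had 54377, 26321 and 522 reads and a ratio of 39.7. The 2 neighbours share a DpnII site, yet only the first kept a high NPC level. Over parts of the coding sequence, chr3:34550162-34550507 had 11611, 14537 and 926 reads with a ratio of 8.58, and chr3:34549202-34549552 had 19051, 13280 and 603 with a ratio of 15.3.

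Between those, chr3:34549553-34550161 had 32737 reads in ES replicate 1, 1224 in ES replicate 2 and 2290 in NPC. Here the ES replicates stood on either side of NPC after normalization, at 20286 and 1488 against 3334, so this fragment gives no direction. The fragment over the Sox2 start with the promoter printed above, chr3:34547651-34549201, had 32816 and 18007 reads in ES cells and 103 in NPC. Its levels were 20467, 19531 and 144, which is a ratio of 139.

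Further upstream, chr3:34546718-34547650 was the highest of the upstream flank in ES cells, with levels of 31232 and 26172 against 4800 in NPC. Next to it in rank, chr3:34545923-34546420 had 28567 and 22479 against 14171, a ratio of 1.80. NPC signal around the gene was thus concentrated in a few fragments. Of its reads in the Sox2 zone, which leaves out the fragment over the start, 72.0% lay on a single fragment, compared with 38.3% and 48.0% in ES cells.

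Downstream of the gene the contrast between neighbours was as sharp. The fragment with the SOX and octamer match, chr3:34552637-34554288, had 64070 and 40828 reads in ES cells and 252 in NPC, with levels of 38748, 45449 and 338 and a ratio of 124. The match lies 4.05 kb after the Sox2 start. The other 2 fragments with a match were low in all libraries, with levels of 1552, 289 and 143 in the upstream flank and 1580, 1142 and 438 in the proximal zone. Flank fragment above, chr3:34560897-34561062 with both sites, had levels of 26172 and 39785 in ES cells and 2925 in NPC, a ratio of 11.3. Also of the highest in this zone, chr3:34564552-34565239, had 53753, 27901 and 15059, a ratio of 2.71 with ES replicates that were far apart.

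**Figure D3:**
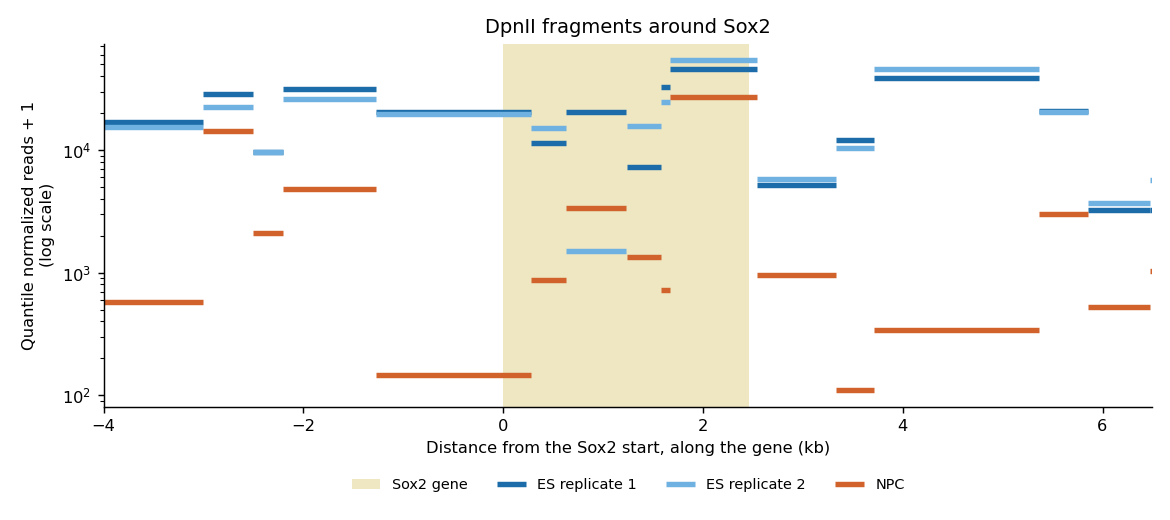
Quantile normalized reads plus 1 (log scale, vertical axis) of each DpnII fragment around Sox2, drawn as a line over its length, against the distance from the Sox2 start (kb, horizontal axis) in the 3 libraries. The NPC line drops to 144 over the start and to 338 over the fragment about 4 kb downstream, and reaches 27100 at the end of the gene.

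In the distal intergenic zone the 3 fragments with the highest ES mean were nearly even between the cell types or rested on 1 library, while others of almost equal ES level were far above NPC. Distal fragment above had levels of 17935, 19734 and 13570, a ratio of 1.39. For chr3:34593729-34594059 the levels were 9535, 17935 and 10596, with NPC between the ES replicates. At chr3:34596403-34597057 the counts were 42756, 310 and 2700, so its high ES mean came from replicate 1 alone. Below these ranks, chr3:34602065-34602740 had levels of 14359, 12038 and 1842, a ratio of 7.17. At chr3:34604756-34604894 they were 17169, 7171 and 131, a ratio of 92.8. These 2 were chosen after their values were seen. Both ES libraries were above NPC in 59 of the 78 distal fragments.

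The proximal zone held fragments of both kinds. The highest in ES cells, chr3:34639143-34639673, had 21130 and 37113 against 2293 in NPC, a ratio of 12.7. In chr3:34624642-34625336 the levels were 13960, 19221 and 680, a ratio of 24.4. At chr3:34620640-34620803 they were 24779, 20124 and 13892, a ratio of 1.62. Proximal fragment A, in contrast, had 8245 and 21259 in ES cells and 25748 in NPC, and proximal fragment B 8783 and 12540 against 26628. Both ES libraries were below NPC in 18 of the 260 fragments, 13 of them in this zone, where both were above NPC in 40. For the lower direction no share over all fragments within 1.5 Mb is given, so these counts only describe the interval. Of the 10 highest fragments, 7 in NPC, but 1 in either ES library, belonged to the proximal zone, while the 3' flank held 4 and 5 of those in ES cells and 1 in NPC.

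The ES replicates shared 8 of their 10 highest fragments, and either shared 3 with NPC. Of the 243 fragments read in both ES libraries, 149 had levels within 2-fold of each other and 46 were more than 4-fold apart. Across fragments the log2 reads correlated with Pearson's r of 0.820 between ES replicates and of 0.699 and 0.726 between each of them and NPC (n = 260). Over 22 steps of 5 kb these values were 0.958, 0.743 and 0.727. Such points share distance from the bait, fragment length and library, and they are neighbours on 1 chromosome, so the correlations are descriptions.

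Fragments with a Csp6I site, which the second digestion can shorten, were 108 of 260, or 41.5%, against 44.8% within 1.5 Mb. They were longer (median 578 bp against 155 bp for those without) and carried 62.5%, 60.8% and 60.1% of the reads. The ES to NPC ratio was 2.43 with the site and 2.56 without it. CpG dinucleotides were densest over Sox2, with 63.1 per kb, and fell from 21.8 in the upstream flank to 18.2, 12.6 and 10.1 in the following zones.

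To test the difference between ES and NPC, reads were summed in 5 kb steps counted from the bait and fitted with edgeR (quasi-likelihood, TMM scaling) over all steps between 20 kb and 1.5 Mb. The spread came from the 2 ES libraries, and NPC was assumed to vary like them. Of 547 steps tested, 11 were higher in ES cells at an adjusted p under 0.05, or 2.01%, and 1 was lower, or 0.183%. In the interval 7 of 22 steps were higher and 0 were lower, and at an unadjusted p under 0.05 there were 17 and 0, against 7.5% and 3.47% of all steps. Fold changes and p-values come from the reads, whereas the levels beside them are quantile normalized. The median log2 fold change was 2.18 in the interval and 0.25 over all steps with this scaling, and 1.67 and -0.23 with library totals. All 22 fold changes of the interval were above 0 with TMM, library totals and DESeq2.

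The called steps lay around Sox2, over the second summit, in Sox2ot shortly before its end and in the distal zone. The step 105 to 110 kb from the bait, which holds the end of Sox2 and the fragment with the motif match, had levels of 22628 and 23448 in ES cells and 4683 in NPC. Its log2 fold change was 3.41 (SE 0.74, edgeR adjusted p = 0.00275). At 110 to 115 kb, with the promoter, the levels were 18422, 15750 and 3820, and the log2 fold change was 3.04 (SE 0.75, edgeR adjusted p = 0.00601). The 115 to 120 kb step had 4068, 4071 and 899 with a log2 fold change of 2.78 (edgeR adjusted p = 0.0271). In the step beyond, which holds Mir1897, the levels were 1185, 1409 and 159, and a log2 fold change of 3.36 narrowly missed the threshold (SE 1.09, edgeR adjusted p = 0.0722). In these 4 steps the ES libraries lay close to each other and both above NPC.

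On the other side of the gene, the step at 100 to 105 kb holds the valley, with 2821, 3386 and 719. Its log2 fold change of 2.52 did not pass (SE 0.90, edgeR adjusted p = 0.134). The steps under the second summit passed, at 95 to 100 kb with 16627, 15718 and 4233 (log2 fold change 2.79, edgeR adjusted p = 0.0193), and at 90 to 95 kb with 10876, 11664 and 3395 (2.44, edgeR adjusted p = 0.0453). The largest log2 fold change of the interval, 4.91 (SE 1.19, edgeR adjusted p = 0.00546), was at 80 to 85 kb in the low stretch before the end of Sox2ot. There the ES levels were 2218 and 2281 and NPC had 96.1, from 492 reads on 7 fragments. The ES side also rested on few fragments. Of 23909 and 13953 ES reads, 10491 and 11151 lay on chr3:34579536-34579664. The fragment before it, chr3:34579436-34579535, had 11773 reads in ES replicate 1 but 157 in ES replicate 2.

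The step with the end of Sox2ot itself, at 75 to 80 kb, had 2272, 1779 and 313 and a log2 fold change of 3.10 that did not pass (SE 0.97, edgeR adjusted p = 0.0597).

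Closer to the bait, only the step at 55 to 60 kb was called, with 3142 and 3092 in ES cells and 450 in NPC (log2 fold change 3.21, edgeR adjusted p = 0.0129). The step of the tallest distal summit, at 60 to 65 kb, had 9487, 7667 and 3224 and a log2 fold change of 2.03 that did not pass (edgeR adjusted p = 0.138). At 25 to 30 kb the log2 fold change was the smallest of the interval with all 3 libraries and TMM, 0.68 (SE 0.71, edgeR adjusted p = 0.828). It was 0.00097 without ES replicate 1 and 1.24 without ES replicate 2, so its size rested on which ES library was used. That was the 1 step in which both ES levels, 3426 and 2222, were below NPC, at 3573. Of its 29353 NPC reads, 11050 lay on proximal fragment B and 8367 on the neighbouring fragment chr3:34632547-34632694. Whether the short preys of these fragments map to a single place was not tested. At 40 to 45 kb NPC, with 2701, lay between the ES libraries with 2007 and 3191.

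Both ES libraries were above NPC in 20 of the 22 steps by level, compared with 29.1% of the 547 steps tested. The ES to NPC ratio of the steps had a median of 2.99 and ranged from 0.790 to 23.4. Against the mirror step at equal distance, 20 and 21 of the 22 were higher in the ES libraries and 15 in NPC.

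**Figure D4:**
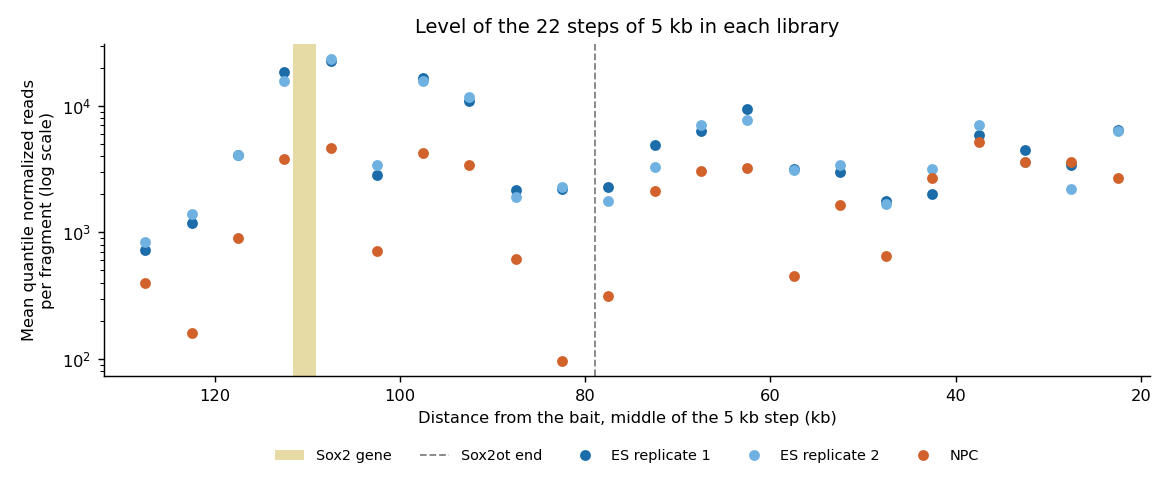
Mean quantile normalized reads per fragment (log scale, vertical axis) in the 22 steps of 5 kb against their distance from the bait (kb, horizontal axis), one point per library. The points of ES cells lie above NPC in 20 steps, and between 25 and 45 kb the 3 libraries come close together, with ratios from 0.790 to 1.24.

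**Figure D5:**
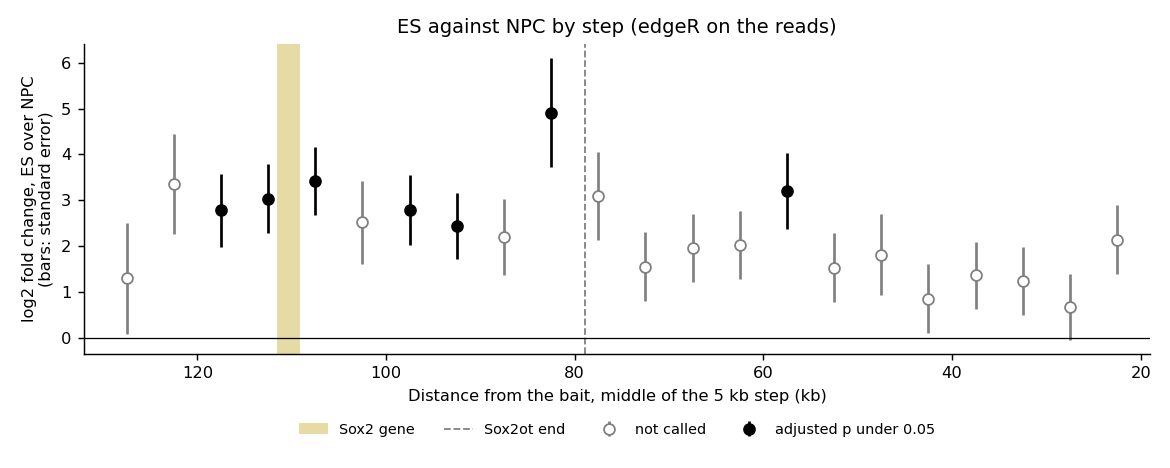
log2 fold change of ES over NPC from edgeR with its standard error (vertical axis) for the 22 steps against the distance from the bait (kb, horizontal axis), filled where the adjusted p was under 0.05. The 7 filled points reach 4.91 at 80 to 85 kb, and the open ones fall to 0.68 at 25 to 30 kb.

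The number of called steps depended on the width of the steps and on the scaling. With steps of 10 kb, 1 of 11 was called (1.72% of all such steps). The median log2 fold change was still 2.13, all 11 were above 0 and 11 had an unadjusted p under 0.05. Over all 290 such steps, 28 were higher in ES cells at that unadjusted p. With counts capped at the 99th percentile 3 of 22 steps of 5 kb were called (0.914%). With library totals 16 of 22 were higher (3.66% of all steps tested), and DESeq2 called 10 (10.2% of 462 with an adjusted p). All 7 steps called by edgeR with TMM were among those called with library totals and with DESeq2. With capped counts the 3 called were among the 7, at 55 to 60, 80 to 85 and 105 to 110 kb. The 4 that then missed the threshold were those at 110 to 115 kb (log2 fold change 2.20, edgeR adjusted p = 0.0863), 115 to 120 kb (2.44, 0.0594), 95 to 100 kb (1.66, 0.379) and 90 to 95 kb (1.63, 0.303).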

How the data were processed

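The authors' deposited files hold raw counts, 1 for each DpnII fragment of chromosome 3. They trimmed the bait with Sabre allowing 2 mismatches and mapped the 27 nt prey of 50 nt reads to mm9 with Bowtie (version 1.0.0, with bcl2fastq, in the submitters' processing notes). The user guide leaves out fragments with over 2% of reads. Counts are not corrected for PCR duplicates.

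All 391360 deposited midpoints matched DpnII fragments of the mm9 sequence. The 3 libraries were quantile normalized over 1.5 Mb around the bait, and 11 fragments entered each running mean. On simulated counts, limma version 3.58.1 gave values equal to those of the normalization used. Reads in 5 kb steps with at least 10 reads, outside 20 kb from the bait, were tested with edgeR (version 4.0.16, R version 4.3.3). It used TMM scaling, the quasi-likelihood test and a Benjamini-Hochberg threshold of 0.05. DESeq2 (version 1.42.0) served as another tool. Standard errors were derived from the F statistic. Scripts ran in Python version 3.11.15 and were tested on simulated data.

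The interval, zones, tests and naming rule were chosen with earlier results of these data known. Named are genes of the interval, fragments overlapping Sox2, the 3 highest ES fragments per zone, and steps with peaks, valleys or extreme fold changes. The NPC fragments and the other steps named were added after their values were seen. Alternatives were another scaling, range, tool, count filter, step width, running mean or valley, capped counts, fragments with a Csp6I site, the median fragment, and leaving out an ES replicate. The Satb1 and Ikzf1 libraries were not used here.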

Additional observations from a re-analysis of the deposited data

How the results depend on the processing

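The direction of each zone's ES to NPC ratio and share was the same under every alternative run for it, and so was that of the fold change of each 5 kb step except at 25 to 30 kb. There the log2 fold change was 0.00097, and so without a direction, when ES replicate 1 was left out, and by quantile normalized level the ratio was 0.790. At 40 to 45 kb the log2 fold change was 0.86 but the ratio by level was 0.962. Sizes moved. In the order upstream flank, Sox2 gene, 3' flank, distal and proximal intergenic zone, the ratios were 4.97, 5.29, 5.12, 2.85 and 1.74 with reads scaled to the total of each file. They were 3.87, 3.34, 4.07, 2.35 and 1.19 when normalized over 0.5 Mb, and 5.03, 3.53, 5.25, 3.12 and 1.38 over the whole file. For the median fragment they were 6.68, 13.4, 8.5, 6.04 and 2.93, with capped counts 3.14, 2.73, 2.88, 2.29 and 1.51, and on fragments with a Csp6I site 4.71, 3.1, 4.28, 2.68 and 1.07. Without one or the other ES replicate they ranged from 3.95 to 4.18, 3.28 to 3.65, 4.31 to 4.39, 2.41 to 2.67 and 1.23 to 1.29. Without its highest fragment, an alternative chosen after seeing the data, the Sox2 gene had a ratio of 10.3. The cause of these moves was not tested.

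In the same order, the share of the interval's reads differed between ES and NPC by 3.79, 1.18, 5.3, -0.211 and -10.1 percentage points with capped counts, and by 7.39, 4.61, 11, -1.67 and -21.3 on fragments with a Csp6I site. Without one or the other ES replicate the difference ranged from 4.99 to 5.2, 3.78 to 3.84, 10.6 to 12.2, -3.3 to -1.62 and -17.9 to -17.8 points.

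The number of peaks rested on the window. ES cells had 17 and NPC 23 with a running mean of 7 fragments, and 4 and 6 with 21 fragments. With a valley of at most 0.5 they had 5 and 9, and with capped counts 9 and 12. Leaving out an ES replicate gave 10 to 13 peaks in ES cells.

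Of the 22 steps, 16 were called higher with library totals, 10 with DESeq2, 7 without the count filter and 3 with capped counts, and 1 of 11 steps of 10 kb. Against TMM, 9 more passed with library totals and 3 more with DESeq2, and 4 no longer passed with capped counts. None was called lower with any of these. Over all steps, edgeR called 11 higher and 1 lower with TMM, 20 and 9 with library totals, 5 and 1 with capped counts, 5 and 0 with steps of 10 kb, and DESeq2 47 and 17. Leaving out an ES replicate leaves 1 library on each side, so steps then have a fold change and no test. No paired analysis was possible, because there was a single NPC library and its label named no ES library as its partner. Each NPC value rests on 1 library, and the interval's NPC reads, 283772, are the fewest of the 3 libraries.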
